A study of Mus musculus with 2 samples.

Results

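RNA levels of 6 ADAMTS proteases (Adamts1, Adamts2, Adamts4, Adamts5, Adamts9 and Adamts12) and of the 4 TIMP inhibitors (Timp1, Timp2, Timp3 and Timp4) were measured in primary chondrocytes of the mouse, once before cyclic tensile strain and once 24 h later. These 10 genes were chosen by name, out of 20660 genes that the array probes could be assigned to. Every non-control probe whose RefSeq transcript belongs to one of them was taken, which gave 14 of 55678 probes. The brightest probe stood for the gene, and the others are given beside it. The chondrocytes came from 6-day-old C57BL/6J mice, for which the labels name no engineered allele, and were released from articular cartilage with collagenase D. They were seeded on fibronectin in silicon stretch chambers, and 48 h later the loaded cells were stretched by 10% at 0.5 Hz for 30 min. RNA of 1 sample taken before the loading and of 1 sample taken 24 h after it was hybridised to 1 array each. How many mice gave these cells is not given in the sources used here. The comparison holds no unloaded culture of the later time, so the strain and the extra 24 h in culture cannot be told apart. The samples are whole cultures, in which fewer cells of a type and less RNA per cell cannot be told apart.

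ADAMTS enzymes are secreted zinc metalloproteinases that cut proteins of the extracellular matrix. Adamts4 and Adamts5 are known as the main aggrecanases of cartilage, which cut the core protein of aggrecan and so release its sulphated chains, and Adamts1 and Adamts9 can cut aggrecan and versican. Adamts2 removes the amino-terminal propeptide from fibrillar procollagens, and Adamts12 has been described as a protease of cartilage oligomeric matrix protein. TIMPs are small secreted proteins that block the active site of matrix metalloproteinases, and Timp3, which stays bound to the matrix, is also the main tissue inhibitor of Adamts4 and Adamts5.

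The promoters of 3 of these genes are shown because their RNA moved differently on the arrays: that of Timp1 was lower at 24 h, that of Timp2 was higher on one probe and not on the other, and Adamts9 had the highest ratio among the proteases whose promoter was at hand. The sequences are the 250 bases before the annotated start in RefSeq, build GRCm38.p6, printed 5′ to 3′ along the strand of the gene. Capitals mark letters that match the SP1 motif GGGCGG or the NF-κB consensus, each on either strand. The Timp1 window lies at chrX:20869916-20870165 on the forward strand, the Timp2 window at chr11:118355412-118355661 on the reverse strand, and the Adamts9 window at chr6:92943535-92943784 on the reverse strand.
Timp1: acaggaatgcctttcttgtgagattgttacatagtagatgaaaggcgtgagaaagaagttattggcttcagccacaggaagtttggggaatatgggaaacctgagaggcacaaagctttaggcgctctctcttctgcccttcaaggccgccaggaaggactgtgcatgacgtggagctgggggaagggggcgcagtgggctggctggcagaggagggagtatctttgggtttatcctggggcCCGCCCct
Timp2: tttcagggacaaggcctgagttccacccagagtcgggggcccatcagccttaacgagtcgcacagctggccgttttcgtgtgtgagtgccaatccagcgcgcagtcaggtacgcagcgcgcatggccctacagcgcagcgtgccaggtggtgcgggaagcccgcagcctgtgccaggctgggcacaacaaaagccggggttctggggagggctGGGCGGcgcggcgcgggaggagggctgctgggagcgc
Adamts9: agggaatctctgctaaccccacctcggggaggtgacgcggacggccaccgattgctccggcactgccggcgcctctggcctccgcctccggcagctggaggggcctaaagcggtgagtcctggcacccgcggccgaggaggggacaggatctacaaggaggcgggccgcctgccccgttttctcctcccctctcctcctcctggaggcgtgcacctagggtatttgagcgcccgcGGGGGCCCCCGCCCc
A window was at hand for 8 of the 10 genes, and none for Adamts4 and Adamts5. GGGCGG was present in 6 of the 8 windows (those of Adamts1, Adamts2, Adamts9, Timp1, Timp2 and Timp3) and in 32.7% of all 32851 windows of that length. The 8 windows had GC contents from 53.6% in Timp4 to 78% in Adamts2, against a median of 52.4% over all windows. A TATAAA box was found in the window of Adamts1 alone, 32 to 27 bases before its start, while 12.4% of all windows hold these letters. Letters of the NF-κB consensus were found in the window of Adamts9 alone, 15 to 6 bases before its start, where they overlap the SP1 letters, and 5.0% of all windows hold them. The AP-1 motif TGANTCA was in 0 of the 8 windows and in 6.75% of all windows. These are matches of letters in a short window, and binding was not measured.

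Gene expression was read as the scanner software's processed intensity, which is the brightness of a spot after background subtraction. Each log2 ratio is that of 24 h after minus before loading, with both arrays scaled to their 75th percentile. With 1 array per time point there was no replicate and no test, and precision is limited by the number of arrays. The error printed after ± combines the scanner software's error of both spots and covers only error within an array. For probes with 1 spot it was at least about 0.20 on the log2 scale, as the smallest error that the software gave was 10% of a spot's intensity. Over the 14222 genes that both arrays measured well above background the log2 ratio had a median of -0.014, with 90% of them between -0.63 and 0.51. All 14 probes of the ADAMTS and TIMP genes had 1 spot each, and 0 of them were saturated or marked as outliers.

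Both arrays measured 9 of the 10 genes well above background, and 0 of these 9 differed more than 2-fold between the arrays on the brightest probe. Among all genes above background 2.50% did so, 0.668% higher and 1.83% lower. All 5 measured proteases were higher at 24 h, as were 47.6% of all genes above background, with log2 ratios from 0.12 (Adamts2) to 0.62 (Adamts5) and a median of 0.51. In 4 of the 5 (Adamts1, Adamts4, Adamts5 and Adamts9) the ratio was larger than its error, against 20.4% of all genes that were higher by more than their error. With another background correction, described below, this did not hold for Adamts1 and Adamts5. The inhibitors were divided, and 1 of the 4 was lower by more than its error, against 22.9% of all genes. Timp1 was lower with a log2 ratio of -0.74, Timp2 was higher on its brightest probe with 0.46, and Timp3 (0.11) and Timp4 (-0.15) differed by less than their error.

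**Figure D1:**
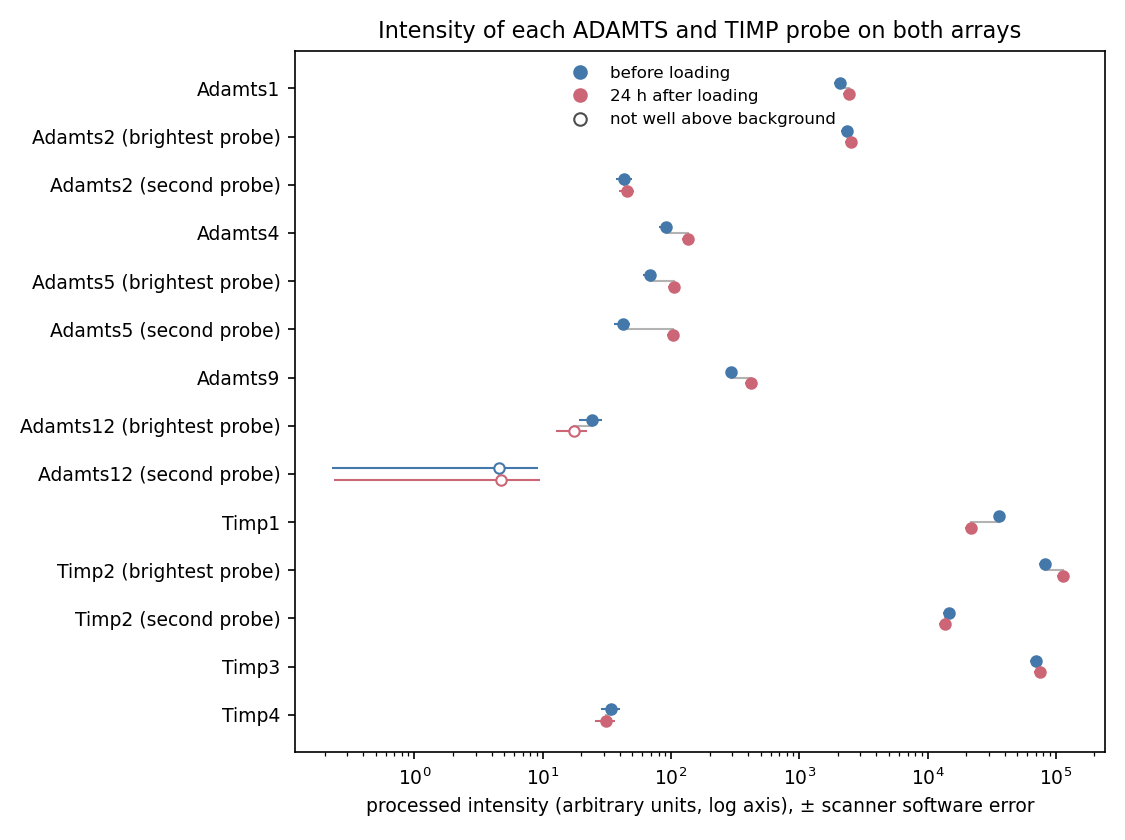
Processed intensity of every probe of the ADAMTS and TIMP genes on a log axis, before loading (blue) and 24 h after (red), 1 array each, with bars for the scanner software's error (a bar that would pass 0 is cut short). Timp1 is lower at 24 h (36375 and 21771), Adamts4, both Adamts5 probes, Adamts9 and the brightest Timp2 probe are higher, and the open points, among them Adamts12 at 24 h, are not well above background.

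Among the aggrecanases, the brightest probe of Adamts5 (probe A_55_P1970826 for transcript NM_011782) gave 68.4 ± 7.75 in the earlier sample and 105 ± 11.2 in the later one, in units of intensity. This was a log2 ratio of 0.62 ± 0.22, or 1.54-fold higher, and it was the highest ratio of the 10 genes. The second probe of the same transcript read 42.03 ± 5.97 before and 104 ± 11.3 at 24 h, a log2 ratio of 1.31 ± 0.26 or 2.48-fold, and it was the single ADAMTS or TIMP probe past 2-fold. Both probes were higher at 24 h. Their ratios differed by 0.68, with an error of 0.34. Both probes were dim, at 3.96 and 2.43 times the lowest intensity that counted as well above background before loading, and at 5.92 and 5.84 times it at 24 h. The raw median signal of the brightest probe was 129 over a local background of 38 before loading and 155.5 over 47 at 24 h, so that the background was higher too, while the second probe went from 80 to 140.5 over a background of 38 on both arrays. The normexp method was also run in place of the scanner's own subtraction, with an offset of 50 added to every intensity. The log2 ratio of the brightest probe became 0.21, within its error, and that of the second probe 0.73. An added offset by itself makes the ratios of dim probes smaller in size, and its part was not separated from that of the background correction. Adamts5 was thus higher at 24 h on either probe and with either correction, but the size ranged from 0.21 to 1.31 on the log2 scale.

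Adamts4, the other main aggrecanase, has 1 probe, which read 91.3 ± 9.96 before loading and 135 ± 14.1 at 24 h. Its log2 ratio was 0.56 ± 0.22, a 1.48-fold higher level, and 4.06% of the genes above background had a higher ratio. Adamts4 was a dim probe as well, and with normexp correction and its added offset the ratio was 0.43. Among the 2845 dimmest of these genes by mean intensity, to which Adamts4 and Adamts5 belong, 90% of the log2 ratios lay between -0.87 and 0.65, so that both brightest probes were inside the range of genes of like brightness and the second Adamts5 probe was outside it.

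Adamts9 and Adamts1 can cut versican as well as aggrecan. The probe of Adamts9 read 296 ± 29.9 before loading and 422 ± 42.4 at 24 h, with a log2 ratio of 0.51 ± 0.21 or 1.43-fold. This ratio moved little between ways of processing, from 0.47 to 0.61. Adamts1, in contrast, differed by a small amount, reading 2065 ± 207 before and 2440 ± 244 at 24 h. Its log2 ratio of 0.24 ± 0.20 was 1.18 times its error and lay between 0.18 and 0.34 under the other settings. In the RefSeq annotation Adamts1 and Adamts5 are next to each other on chromosome 16 with no protein-coding gene between them.

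Adamts2, the procollagen propeptidase, read 2346 ± 235 before loading and 2543 ± 254 at 24 h on its brightest probe. The log2 ratio of 0.12 ± 0.20 was smaller than its error, and the second, dim probe gave 0.069 ± 0.29. With median or spike-in scaling the brightest probe gave 0.21, just above that error. Adamts12 was at the edge of detection. Its brightest probe read 24.2 ± 5.0 before loading, which was well above background, and 17.5 ± 4.70 at 24 h, which was not. The reading before loading was 1.36-fold above the lowest intensity that counted as well above background at 24 h. The error of 0.49 on the log2 scale was larger than the size of the measured ratio of -0.46, so the direction of Adamts12 was not settled. The second probe of Adamts12 stayed at background on both arrays.

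**Figure D2:**
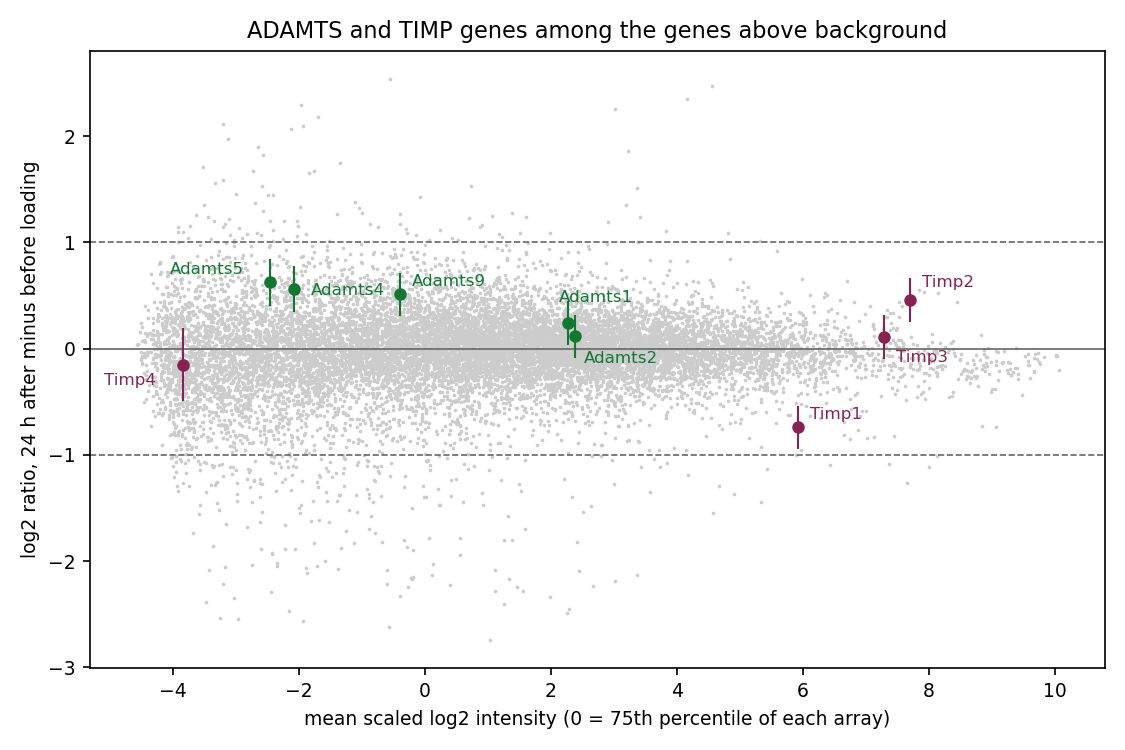
Log2 ratio (24 h after minus before loading) against mean scaled log2 intensity, where 0 is the 75th percentile, for the 14222 genes above background on both arrays (grey) with the 5 ADAMTS (green) and 4 TIMP genes (purple) on their brightest probe, bars showing the within-array error and dashed lines 2-fold. All 9 labelled genes lie inside the dashed lines, the ADAMTS genes above 0, and the scatter of the grey points is wider at low intensity. Levels of different probes are not comparable along the horizontal axis.

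Timp1, a soluble inhibitor whose gene is known to respond to growth factors and cytokines, had the largest ratio in size among the brightest probes of the 10 genes. Its intensity was 36375 ± 3637 before loading and 21771 ± 2177 at 24 h, a log2 ratio of -0.74 ± 0.20 or 1.67-fold lower. Of all genes above background, 3.56% had a lower ratio. The probe is bright, and among the 2845 brightest genes by mean intensity 90% of the log2 ratios lay between -0.42 and 0.34, so that Timp1 was below that range. The ratio stayed between -0.74 and -0.63 under every setting run for it. The 16 neighbouring spots within 100 µm that were above background had a median log2 ratio of -0.091, and 0 of them passed 2-fold.

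Timp2 binds Mmp14 at the cell surface and takes part in the activation of the Mmp2 proenzyme, besides inhibiting both. Its brightest probe read 82174 ± 8217 before loading and 112982 ± 11298 at 24 h, with a log2 ratio of 0.46 ± 0.20, which was above that range of the brightest genes. The second probe of the same transcript, which was bright too, read 14671 ± 1467 and 13735 ± 1373, with a log2 ratio of -0.094 ± 0.20. The ratios of the probes differed by 0.55, with an error of 0.29, and they had opposite signs. The median range between probes of one gene was 0.19 over the 3635 genes with several probes above background. The files give the transcript of a probe and not its place in it, and what separates the Timp2 probes was not tested. A direction for Timp2 therefore rested on which probe was read.

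Timp3, the inhibitor of the aggrecanases, read 69858.5 ± 6986 before loading and 75299 ± 7530 at 24 h. Its log2 ratio of 0.11 ± 0.20 was smaller than its error and lay between 0.11 and 0.27 under the other settings. With median or spike-in scaling, quantile normalization, cyclic loess or normexp the ratio was above that error, so the reading depended on the scaling. Timp4 was dim, at 34.4 ± 5.62 and 31.0 ± 5.42, with a log2 ratio of -0.15 ± 0.35. Timp1, Timp3 and Timp4 each lie inside a synapsin gene in the RefSeq annotation, which is a known arrangement of this family, and the synapsins were looked up after the values of the TIMPs had been seen. Syn1, which holds Timp1, read 173 before loading and 117 at 24 h, a log2 ratio of -0.56 ± 0.21. Syn1 was thus lower by more than its error, as was Timp1 and as were 22.9% of all genes. Syn2, which holds Timp4, read 28.6 and 28.0, and Syn3, which holds Timp3, was not well above background before loading. Cep295nl, which overlaps Timp2, was lower (-0.36 ± 0.21), while the brightest Timp2 probe was higher. It too was named after its values were seen.

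**Figure D3:**
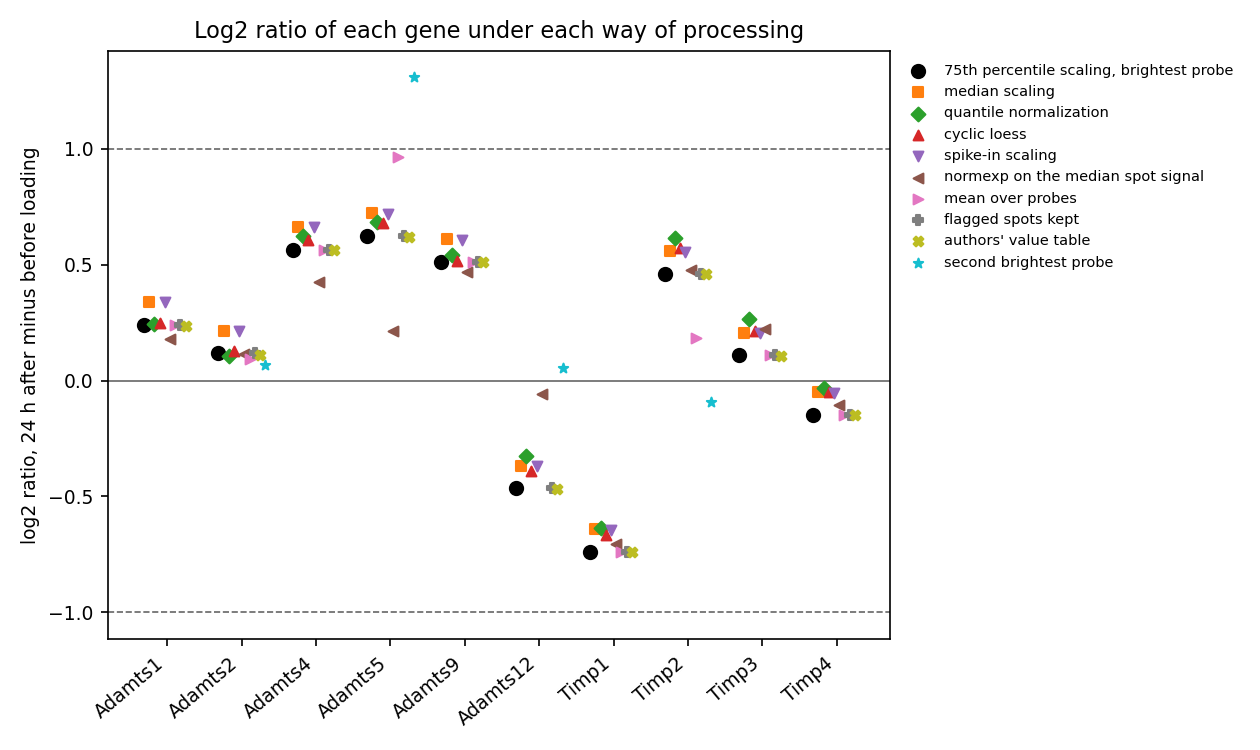
Log2 ratio (24 h after minus before loading) of each ADAMTS and TIMP gene under each way of scaling, background correction and choice of probe, 1 symbol per setting, with dashed lines at 2-fold. The symbols of Timp1 stay between -0.74 and -0.63 and those of Adamts9 between 0.47 and 0.61, while those of Adamts5 spread from 0.21 to 1.31 and those of Timp2 from -0.094 to 0.62.

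At a threshold of 1.5-fold, Adamts5 was the one gene of the 9 that was higher and Timp1 the one that was lower, where 3.66% of all genes above background were higher and 5.84% lower, together 9.49%. Spots near those of the ADAMTS and TIMP probes were read as a check of the array surface. The neighbouring spots above background of the 14 probes, 10 to 19 each, had median log2 ratios between -0.19 and 0.16, and at most 2 of them were more than 2-fold higher and at most 1 more than 2-fold lower.

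The other 13 ADAMTS genes of the list were mostly faint. Of these, 5 were above background on both arrays, and 4 of the 5 were higher at 24 h, against 47.6% of all genes, with a median of 0.21 and 0 past 2-fold. Adamts7 (0.61 ± 0.24), which like Adamts12 has been described as a protease of cartilage oligomeric matrix protein, and Adamts10 (0.54 ± 0.22), which is linked to fibrillin microfibrils, had the highest log2 ratios. Adamts14, a second procollagen propeptidase, had 0.21 ± 0.20 on its brightest probe and -0.62 ± 0.39 on a dim one. Adamts8 was the one that was lower, from 176 to 121, with a log2 ratio of -0.54 ± 0.21. Adamts15, another aggrecanase, was not well above background before loading (18.7) and read 68.4 at 24 h. As measured, Adamts15 was 3.66-fold higher, with a log2 ratio of 1.87 ± 0.42. It was named after its values were seen, since the count above leaves it out. Of 7 ADAMTS-like genes, 6 had a probe and 3 were above background on both arrays, with a median of -0.17. Thsd4 (-0.91 ± 0.27) came nearest to 2-fold, while Adamtsl1 (-0.17 ± 0.34) and Adamtsl4 (0.10 ± 0.20) differed by less than their error.

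Of 12 substrates of the ADAMTS enzymes, 11 were above background on both arrays, with a median log2 ratio of -0.040 and 0 past 2-fold. Of the 11, 7 (63.6%) differed by less than their error, against 56.6% of all genes. The other one, Ncan, which encodes the proteoglycan neurocan and was named after its values were seen, was not well above background before loading (12.8). It read 39.9 at 24 h, which was 2.31-fold above the lowest intensity that counted as well above background before loading. Acan, which encodes aggrecan, was higher, from 71350 to 89998, with a log2 ratio of 0.34 ± 0.20, and Bcan, which encodes the related proteoglycan brevican, had 0.62 ± 0.21 on its brightest probe and 0.84 ± 0.31 on the other. Biglycan (Bgn, -0.28 ± 0.20) and von Willebrand factor (Vwf, -0.48 ± 0.26) were lower. Of 27 targets and partners of the TIMPs, 20 were above background on both arrays, 10 of them higher and 10 lower, with a median of 0.0072 and 0 past 2-fold. Mmp24 (0.72 ± 0.39, a dim probe), Mmp14 (0.58 ± 0.20), Adam8 (-0.50 ± 0.20) and Mmp19 (-0.50 ± 0.38) differed most. Mmp14, the membrane-type partner of Timp2, read 718 before loading and 1072 at 24 h.

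Of 12 genes listed as regulators of ADAMTS activation, clearance and anchorage, all 12 were above background, with a median of -0.029. An action of these genes on ADAMTS enzymes was not measured. Efemp1, which encodes fibulin-3, was the one gene past 2-fold among those of these lists that were above background on both arrays. The 5 lists held 5, 3, 11, 20 and 12 such genes. Of all genes above background 2.50% were past 2-fold, 0.668% higher and 1.83% lower. Efemp1 read 3216 before loading and 7608 at 24 h, with a log2 ratio of 1.24 ± 0.20. Fibulin-1 (Fbln1), which is known to bind Adamts1 as a cofactor, was lower on both probes, with -0.69 ± 0.21 and -0.89 ± 0.28. Syndecan-1 (Sdc1, 0.51 ± 0.20) was higher, and so was Reck, a membrane-anchored inhibitor of metalloproteinases, with 0.45 ± 0.20 and 0.51 ± 0.21 on its probes.

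**Figure D4:**
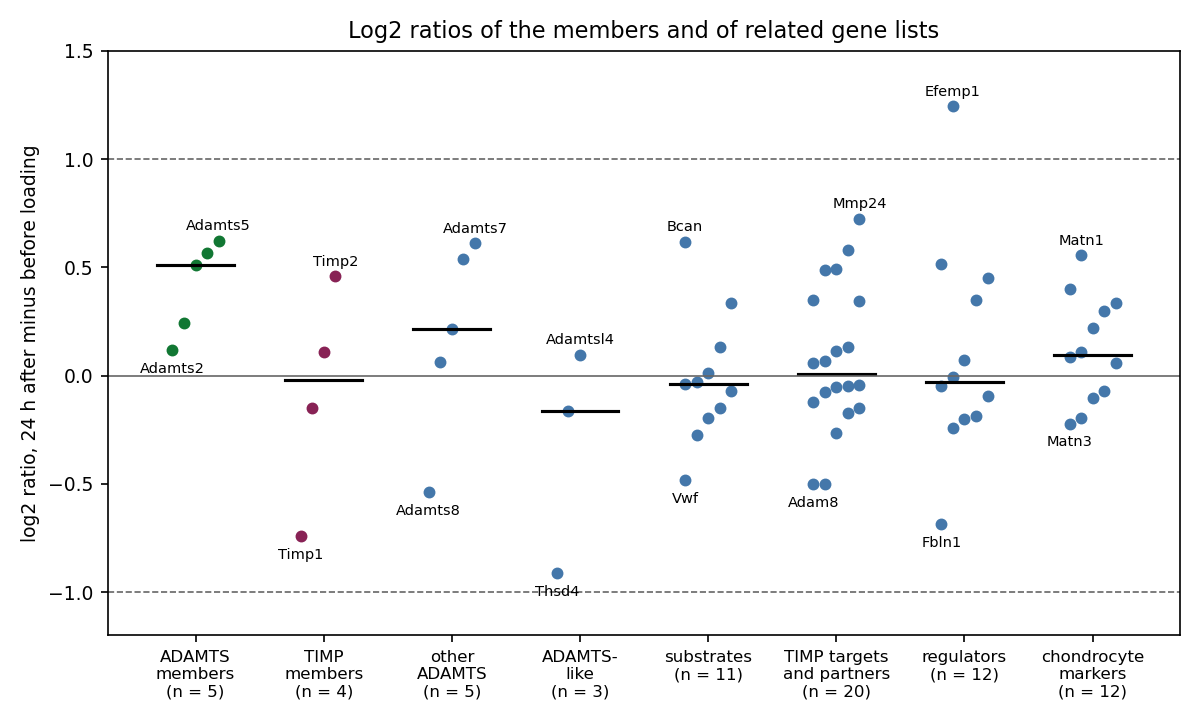
Log2 ratios (24 h after minus before loading) of the ADAMTS and TIMP genes and of the related lists on the brightest probe, 1 point per gene above background on both arrays (n under each list), black bars for medians and dashed lines for 2-fold, with the lowest and highest gene of each list named. The medians are 0.51 for the ADAMTS genes and -0.020 for the TIMP genes, those of the substrates, TIMP partners and regulators lie near 0, and Efemp1 is the one point outside the dashed lines.

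As for the label of the cells, all 12 chondrocyte markers were above background on both arrays, among them Col2a1, Acan, Sox9 and Matn3, with log2 ratios from -0.22 to 0.56. Some genes on the lists of other cell types were above background on both arrays as well, as were 14222 of all 20660 genes. Such counts alone do not show that these cells were in the cultures. Of the endothelial list 2 of 6 were above background on both arrays, and of the erythroid list 2 of 6. Of the skeletal muscle list 4 of 6 were, of the osteoblast list 4 of 5 and of the fibroblast and tenocyte list 5 of 6. Kdr of the endothelial list read 12774 and 12375 on its brightest probe. Its other probe read 5.05 and 5.63 and was not well above background. All 5 macrophage markers with a probe were above background on both arrays. Of these, 4 were higher at 24 h, against 47.6% of all genes, with a median log2 ratio of 0.21. The sum of their intensities, most of it from Csf1r (3646 and 3288), was 4198 before loading and 4024 at 24 h. Cdh5, Tek, Hbb-bt, Alas2, Myod1, Des and Dmp1 were among those not above background. Single markers moved past 2-fold: Ptprc of leukocytes (1.14 ± 0.35, dim) and Dpt of fibroblasts (log2 ratio 2.10) were higher, and Ibsp of the osteoblast list (-2.06 ± 0.23) was lower. All 4 osteoblast markers above background were lower, against 52.4% of all genes, with a median log2 ratio of -0.49. Of the 4, Col1a1 (-0.040 ± 0.20) differed by less than its error. The summed intensity of all 5 osteoblast markers with a probe was 34836 before loading and 33638 at 24 h. Nearly all of it came from Col1a1 (34458 and 33493). Of the fibroblast and tenocyte markers 3 of 5 were higher, against 47.6% of all genes, with a median of 0.11. The summed intensity of all 6 fibroblast and tenocyte markers, most of it from Scx and Pdgfra, was 3974 and 3629. The part of such cells in the values of the ADAMTS and TIMP genes was not tested.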

How the data were processed

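The authors deposited, for each array (SurePrint G3 Mouse Gene Expression, 1 colour, Cy3), the intensity of every spot from Agilent Feature Extraction 10.10.1.1 after background subtraction, with no normalization between arrays, and a table of the same intensities, which differed by at most 0.497%. Both arrays were on 1 slide and 1 scan. Of 59305 non-control spots 59.1% of the first array and 57.7% of the second passed the software's call of well above background, of which the lowest intensities were 17.3 and 17.8. Outlier spots of either array were removed, spots of a probe were averaged as log2 intensity, and each array's 75th percentile (intensity 466 on both) was subtracted. Probes were named without accession versions through RefSeq transcripts of GRCm38, used for names only (27235 probes matched, 20660 genes). A gene was represented by its brightest probe and called above background when that probe was so on both arrays. Called means past 2-fold. The members and lists (other ADAMTS, ADAMTS-like, substrates, TIMP targets and partners, regulators, cell type markers) were chosen with earlier results of these data known. Named from each list were genes past 2-fold and the 4 largest ratios, with marker examples from the first 4 of each list. Other genes were named after their values were seen. Spot positions were converted at 3 µm per pixel, per the file headers. Python 3.11.15, numpy 2.4.6, pandas 2.3.3, scipy 1.17.1, R 4.3.3 and limma 3.58.1 were used. The code that counts genes past 2-fold was tested on simulated data, which bears on the code and not on the error between samples.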

Additional observations from a re-analysis of the deposited data

How the results depend on the processing

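No paired analysis was possible because each time point has a single array, and for the same reason no replicate could be left out. Normexp used the median spot signal, as the files used here hold no mean. The second probe with normexp was chosen after seeing the data. Scaling by the median or by spike-in controls added 0.10 to every log2 ratio. Adamts1, Adamts2, Adamts4, Adamts9, Timp1, Timp3 and Timp4 moved by less than the error of their ratio in each setting tried, though Adamts2 gave -0.032 with the second probe and normexp. Adamts5 moved from 0.62 to 0.21 with normexp (offset 50) to 0.97 with the mean over probes and to 1.31 with the second probe. Timp2 moved from 0.46 to 0.18 with the mean over probes and reversed to -0.094 with the second probe, or -0.042 with the second probe and normexp. The second probe of Adamts12 gave 0.055, or 0.068 with normexp, and was not above background. Of the members, 1 was higher past 2-fold with the second probe, and 1 was higher and 1 lower at 1.5-fold, against 0 and 0. The related lists held 5, 3, 11, 20 and 12 genes above background on both arrays. Of these genes, 1 was more than 2-fold higher and 0 lower, against 0.668% and 1.83% of all genes above background. At 1.5-fold these counts were 4 and 2, against 3.66% and 5.84% of all genes above background. With a background call on at least 1 array they were 4 and 1, and with no filter on dim probes 5 and 2. The shares of all genes under those background settings are not given here, so these counts cannot be set against them. The higher count was 0 with the second probe (also with normexp) and 0 when 2-fold had to be passed by more than 2 errors. The cause of the shifts between probes was not tested. Signal over background limits Adamts4, Adamts5, Adamts12 and Timp4, whose brightest probes are near background.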
